A study of Mus musculus with 11 samples.

Results

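Cbx7 encodes a chromobox subunit of Polycomb repressive complex 1 (PRC1). Its locus on mouse chromosome 15 holds DNA that was open in an embryonic stem cell line of 1 mouse strain and nearly closed in a line of another. The locus was defined by position, as every region of the accessibility table on chromosome 15 that starts between 79890000 and 80010000. This window of 120000 bp takes in the promoters and body of Cbx7 and the flank upstream of it. It held 30 of the 248336 regions in the table. It was chosen because 1 region upstream of Cbx7 had differed between the lines of strains C57BL/6J and DBA/2J. The difference between these lines is therefore given below as a description without a test.

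The study profiled open chromatin by ATAC-seq, where a transposase inserts sequencing adapters into accessible DNA, in 11 libraries from 4 mouse embryonic stem cell lines. B6 is line B6 5-1 of strain C57BL/6J (3 libraries) and D2 is line D2 5-5 of strain DBA/2J (3 libraries). B6-13D2 is line QJ 6-1 of the congenic strain B6.D2-(rs30079041-rs51756099)/Bakr, a B6 background with a D2 interval of chromosome 13 (2 libraries). D2-13B6 is line XE 2-4 of the reciprocal strain D2.B6-(rs29224292-rs13469455)/Bakr, a D2 background with a B6 interval of chromosome 13 (3 libraries). The series text gives rs51756099 in place of rs13469455 as the end of that interval. No treatment was applied, and all lines grew with serum, LIF and 2 kinase inhibitors, against MEK and GSK3. Each genotype was 1 cell line and its libraries were technical replicates, so errors and p-values measure the spread between libraries, and each comparison is between single lines. Cbx7 lies on chromosome 15, outside the exchanged interval, so the D2-13B6 line carries the D2 background there and B6-13D2 the B6 background, as far as the labels say.

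Polycomb proteins keep developmental genes silent by modifying histones. PRC2 methylates a lysine of histone H3, and the chromodomain of a Cbx protein reads that mark and brings PRC1, which ubiquitinates histone H2A. Cbx7 is the Cbx subunit best known from pluripotent embryonic stem cells, where it holds lineage genes in check, and Cbx2, Cbx6 and Cbx8 are among its relatives. The neighbours of Cbx7 in the window are Apobec3, a cytidine deaminase that restricts retroviruses, on the side of its 3′ end, and the last part of Pdgfb, a platelet-derived growth factor chain, on the upstream side.

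Cbx7 (ENSMUSG00000053411.16) runs on the minus strand from 79915807 to 79971119 in the GENCODE M21 annotation. Of its annotated transcripts, 7 start between 79932516 and 79933899, in a CpG-rich promoter, and 2 start at a distal promoter, at 79971118 and 79971119. Of the 30 regions, 19 overlapped Cbx7, 3 lay on the Apobec3 side and 8 lay in the upstream flank. The region that differed between the D2 and B6 lines spans 79973902 to 79974209 (307 bp), is intergenic, and lies 2783 bp upstream of the distal start. It is called the upstream region below. Sequence is shown for its central part, because the results turn on it, and for the CpG-rich promoter as a contrast within the locus. Both come from GRCm38.p6, the C57BL/6J reference, so the D2 allele is not shown, and the promoter was taken from the RefSeq promoter table up to its start site. Capitals mark matches to the motifs searched.

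upstream region, chr15:79973906-79974205, plus strand: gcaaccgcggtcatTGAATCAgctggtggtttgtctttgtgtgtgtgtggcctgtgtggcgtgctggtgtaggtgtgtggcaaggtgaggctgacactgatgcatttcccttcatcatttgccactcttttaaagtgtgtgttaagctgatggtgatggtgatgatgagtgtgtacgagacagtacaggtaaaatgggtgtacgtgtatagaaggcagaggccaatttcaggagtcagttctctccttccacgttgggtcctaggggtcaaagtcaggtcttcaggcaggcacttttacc
Cbx7 promoter, chr15:79932647-79932896, minus strand: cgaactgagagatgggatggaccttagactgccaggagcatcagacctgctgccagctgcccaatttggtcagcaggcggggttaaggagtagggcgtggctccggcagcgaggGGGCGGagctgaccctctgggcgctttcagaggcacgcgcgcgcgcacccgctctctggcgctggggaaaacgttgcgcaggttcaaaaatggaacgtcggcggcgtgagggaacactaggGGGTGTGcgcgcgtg

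The capitals in the upstream region are TGAATCA, at position 15 of the 300 bases, a match to the loose AP-1-type string TGANTCA. N stands for any base and the match has A there, so an AP-1 site is not shown. TGANTCA was the only string matched there among 8 motifs searched on both strands. The others were the GC box GGGCGG, the Klf-type box GGGTGTG, the E-box CACGTG and the extended orphan receptor half-site TCAAGGTCA. They also included the octamer motif ATGCAAAT, the Ets-type motif CCGGAAG and the Stat-type motif TTCNNGGAA. TGANTCA, with any base at N, occurred in 13.7% of the 248336 windows of the same length at region centres and in 7.79% of 32544 RefSeq promoters. The upstream window held 6 CpG in 300 bases at 49.7% GC, and 34.0% of its bases were soft-masked as repeats. The promoter held 23 CpG in 250 bases at 64.8% GC, with 1 GC box, a motif present in 35.9% of promoters, and 1 GGGTGTG, present in 7.98% of promoters. Motif matches are descriptions of these letters and not of binding.

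Total counts in regions ran from 15198496 to 27293140 in libraries with a B6 background and from 29172484 to 43042955 in those with a D2 background. Depth thus differed with background, and no library was a copy of another. The D2-13B6 line stood apart from the other lines in its chromosomes and in marker promoters. In D2-13B6 against B6-13D2, the median log2 fold change was 0.17 on chromosome 11, -0.49 on chromosome 13 and -0.04 on chromosome 15. Promoters of 8 embryonic stem cell genes, Pou5f1 and Nanog among them, summed to 208 to 245 CPM, counts scaled to a common normalised library total, in D2-13B6, against 323 to 331 in B6, 315 to 334 in B6-13D2 and 300 to 333 in D2. Of these 8, 6 were lower in D2-13B6 than in B6-13D2 and 1, Klf4, was higher, where 64.6% of the promoters of all protein-coding genes passed the test in that comparison, 57.02% higher and 7.58% lower. Promoters of 5 of 6 fibroblast or feeder genes were tested, and they summed to 89.8 to 120 CPM in D2-13B6, against 49.2 to 55.1, 42.5 to 49.1 and 65.8 to 68.1 in B6, B6-13D2 and D2, with 4 of 5 higher in D2-13B6 than in B6-13D2, a direction that most promoters shared. Of 5 primitive endoderm promoters, 2 were higher and 1 was lower in D2-13B6, and of 4 primed or mesoderm promoters, 1 was higher and 1 lower. No promoter tested on these lists was at 0 in any line. The part of these shifts in the results below that involve D2-13B6 was not tested.

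The upstream region was nearly closed in the lines with a B6 background and open in the lines with a D2 background. Its raw counts were 27, 5 and 19 in B6 replicates 1, 2 and 3 and 19 and 13 in B6-13D2 replicates 1 and 2. They were 347, 271 and 332 in D2-13B6 replicates 1, 2 and 3 and 589, 624 and 492 in D2. After scaling, these were 0.90, 0.30 and 0.83 CPM in B6, 0.86 and 0.65 in B6-13D2, 9.01, 8.21 and 11.4 in D2-13B6, and 15.3, 16.7 and 14.1 in D2. All 6 libraries with a D2 background lay above all 5 with a B6 background, B6 and B6-13D2 overlapped, and every D2 library lay above every D2-13B6 library. In bulk libraries, a site open in more of the cells and a site more open in each cell cannot be told apart.

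D2-13B6 against B6-13D2 shares no library with the comparison that drew attention to the region. Accessibility of the upstream region rose 12.5-fold in D2-13B6 over B6-13D2, a log2 fold change of 3.64 (SE 0.28, adjusted p = 8.00e-17 by edgeR's quasi-likelihood test). Only 130 of the 246840 regions tested had a larger log2 fold change in that comparison. The value lay between 3.36 and 3.87 under all 17 alternative settings, which included leaving out each library in turn. For comparison, the log2 difference was 4.40 for D2 over B6, 3.71 for D2-13B6 over B6 and 4.33 for D2 over B6-13D2, which share libraries with each other and are given without a test.

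Lines of the same background were compared next. These comparisons use the D2 or B6 libraries of the strain difference that defined the window, so their values at the upstream region are descriptions without a test. On the D2 background it was 1.61-fold higher in D2 than in D2-13B6, a log2 fold change of 0.69 (SE 0.17), and its values did not overlap between the lines. On the B6 background the log2 fold change of B6-13D2 against B6 was 0.07 (SE 0.37), with overlapping values. That sign is not fixed, since it became -0.19 without B6 replicate 2 and -0.16 without B6-13D2 replicate 1. The interaction, the effect of the D2 interval on the B6 background minus that on the D2 background, was -0.62 (SE 0.40).

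**Figure D1:**
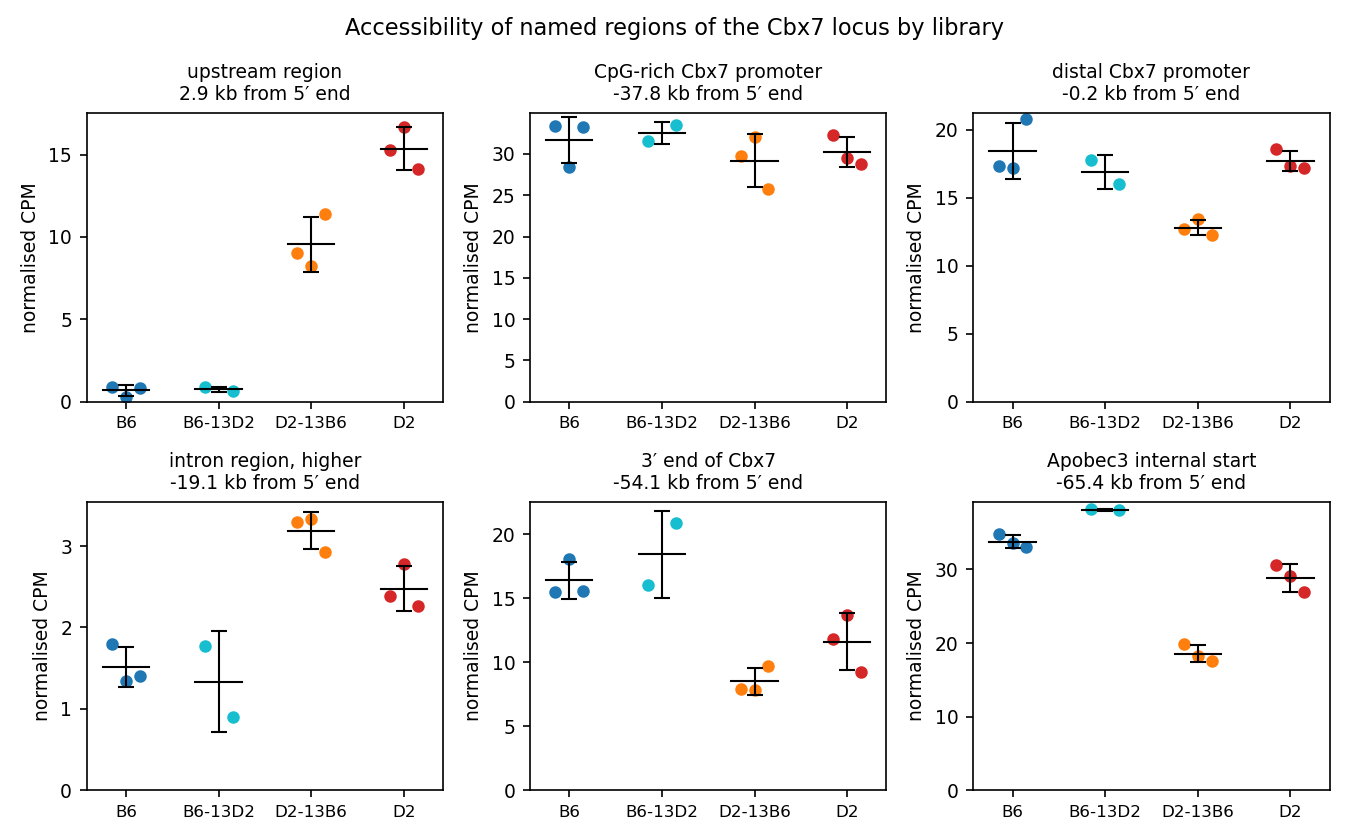
Normalised CPM (y axis, from 0) of 6 regions of the Cbx7 locus in every library, by line (x axis), with points for libraries and bars for the mean ± SD. Distances are from the annotated 5′ end of Cbx7 to the region centre. The upstream region sits at or under 0.90 in all B6 and B6-13D2 libraries and between 8.21 and 16.7 in D2-13B6 and D2, and the CpG-rich promoter sits between 25.8 and 33.5 in all 11.

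Measured per kilobase of region, the upstream region moved from the last to the first place in the locus. It had 2.21 CPM per kb in B6 and 2.46 in B6-13D2, the lowest of the 30 regions in both lines. In D2-13B6 and D2 it had 31.1 and 50.04 CPM per kb, the highest of the 30. The next highest region had 10.9 CPM per kb in D2-13B6 and 9.50 in D2, so on this measure the upstream region stood clear of every promoter and gene-body region. The measure depends on region width, which was 307 bp for the upstream region and 3993 bp for the CpG-rich promoter. Without division by width, the D2 means were 15.4 CPM at the upstream region and 30.2 CPM at the CpG-rich promoter. Its share of all counts in the locus was 5.94% ± 0.326 (SD, n = 3) in D2 against 0.248% ± 0.120 (SD, n = 3) in B6. The congenic lines had 4.25% ± 0.828 (SD, n = 3) for D2-13B6 and 0.270% ± 0.0652 (SD, n = 2) for B6-13D2. The locus as a whole was not more open in the D2 background. It summed to 259 ± 26.5 CPM (SD, n = 3) in D2 and 275 ± 3.52 CPM (SD, n = 3) in B6. The sums were 226 ± 13.4 CPM (SD, n = 3) for D2-13B6 and 282 ± 11.4 CPM (SD, n = 2) for B6-13D2.

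The neighbouring regions did not show a difference of that size. The next region towards Cbx7, 79972238 to 79972521, lies 1119 bp from the distal start. Its mean was 1.62 ± 0.140 CPM (SD, n = 3) in D2 and 0.800 ± 0.480 CPM (SD, n = 3) in B6. The congenic means were 1.495 ± 0.398 CPM (SD, n = 3) for D2-13B6 and 1.10 ± 0.138 CPM (SD, n = 2) for B6-13D2, and its log2 fold change in D2-13B6 against B6-13D2 was 0.46 (SE 0.36, adjusted p = 0.329). The next region away from Cbx7, 79981005 to 79981474, went the other way at -0.64 (SE 0.29, adjusted p = 0.0708). In D2 against B6, 1 of the 30 regions, the upstream region, differed at least 2-fold, where 9.98% of all tested regions did. Since the window was chosen for that region, nothing is read from this count.

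**Figure D2:**
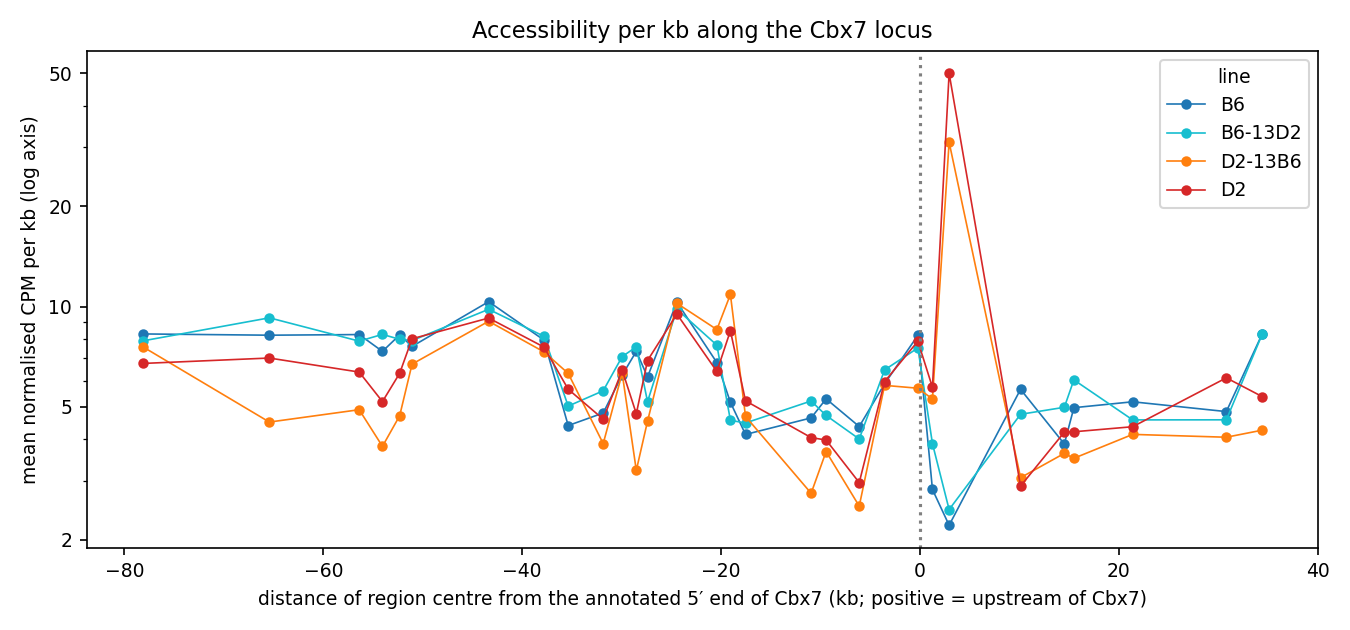
Mean normalised CPM per kb (y axis, log scale) of the 30 regions in each of the 4 lines, by distance of the region centre from the annotated 5′ end of Cbx7 (x axis, kb, positive values upstream). The lines separate most at the upstream region, where D2 reaches 50.04 and D2-13B6 31.1 CPM per kb against 2.21 in B6 and 2.46 in B6-13D2. Smaller separations lie within Cbx7, as at 79942140 to 79943053, with 3.23 in D2-13B6 and 7.57 in B6-13D2.

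The CpG-rich promoter of Cbx7, from which most annotated transcripts start, was open to a similar level in all 11 libraries. The region covers 79931309 to 79935302. It had 33.3, 28.4 and 33.3 CPM in B6, 31.6 and 33.5 in B6-13D2, 29.7, 32.1 and 25.8 in D2-13B6, and 32.3, 29.5 and 28.8 in D2, and the lines overlapped. Its log2 fold change was -0.15 (SE 0.18, adjusted p = 0.543) in D2-13B6 against B6-13D2, 0.04 (SE 0.18, adjusted p = 0.991) in B6-13D2 against B6 and 0.05 (SE 0.16, adjusted p = 0.875) in D2 against D2-13B6. With libraries scaled by total counts, the first of these was -0.46 (adjusted p = 0.00151). That scaling moved the median of all regions in the same comparison by -0.29.

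The distal promoter of Cbx7, at 79969790 to 79972038 and next to the upstream region, was lowest in D2-13B6. It had 17.3, 17.2 and 20.8 CPM in B6, 17.8 and 16.0 in B6-13D2, 12.7, 13.4 and 12.3 in D2-13B6, and 18.6, 17.3 and 17.2 in D2. All 3 D2-13B6 libraries lay below the other 8, which overlapped between lines. The log2 fold change of D2-13B6 against B6-13D2 was -0.40 (SE 0.18, adjusted p = 0.0760), which did not pass the threshold of 0.05, although it did with total-count scaling (-0.70, adjusted p = 2.69e-05) and without D2-13B6 replicate 2 (-0.44, adjusted p = 0.0358). D2 against D2-13B6 was 0.47 (SE 0.16, adjusted p = 0.0259), and this call was lost without D2-13B6 replicate 1 (0.46, adjusted p = 0.0732), D2 replicate 1 (0.43, adjusted p = 0.107) or D2 replicate 3 (0.49, adjusted p = 0.0522). It was also lost with RLE size factors (0.40, adjusted p = 0.0932) and with only the libraries of that comparison in the fit (0.45, adjusted p = 0.138). The log2 difference of D2 against B6, given without a test, was -0.06 at the distal promoter and 4.40 at the upstream region beside it.

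Across the locus, the difference between the congenic lines ran in both directions, and the upstream region had the largest change of the 30. In D2-13B6 against B6-13D2, 10 of the 30 regions passed the threshold, 2 higher and 8 lower, where 37.9% of all tested regions passed, 20.4% higher and 17.4% lower. The median log2 fold change was -0.21 over the locus and -0.12 over all tested regions. DESeq2 also called 2 higher and 8 lower, and total-count scaling called 2 higher and 17 lower. By position, 5 of the 19 regions over Cbx7, 2 of the 3 on the Apobec3 side and 3 of the 8 in the upstream flank passed. In the windows of equal width on either side, 10 of 28 and 9 of 21 regions passed, so the share of called regions at Cbx7 was near that of its surroundings.

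The other higher region was a 293 bp stretch in an intron of Cbx7, 79951913 to 79952206. It had 1.80, 1.34 and 1.401 CPM in B6, 1.77 and 0.90 in B6-13D2, 3.30, 3.33 and 2.92 in D2-13B6, and 2.39, 2.78 and 2.26 in D2. The 6 libraries with a D2 background lay above the 5 with a B6 background, as at the upstream region but with a much smaller gap. The log2 fold change of D2-13B6 against B6-13D2 was 1.24 (SE 0.29, adjusted p = 3.09e-04), and without B6-13D2 replicate 2 it was 0.85 (adjusted p = 0.0600). Against D2-13B6, D2 stood at -0.36 (SE 0.22, adjusted p = 0.248).

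Of the 8 lower regions, the 4 with the smallest p-values lay over the 3′ end of Cbx7, in 2 of its introns and at Apobec3. The region over the 3′ end of Cbx7, 79915950 to 79918182, had 15.5, 18.1 and 15.6 CPM in B6, 16.0 and 20.8 in B6-13D2, 7.92, 7.85 and 9.73 in D2-13B6, and 11.8, 13.7 and 9.26 in D2. D2-13B6 and D2 overlapped there, and both lay below all libraries with a B6 background. Its log2 fold change in D2-13B6 against B6-13D2 was -1.12 (SE 0.19, adjusted p = 1.46e-06).

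The region at Apobec3, 79903635 to 79907752, holds an internal start site of that gene and is the strongest region at its annotated starts. It had 34.8, 33.5 and 33.0 CPM in B6, 38.2 and 38.0 in B6-13D2, 19.8, 18.2 and 17.6 in D2-13B6, and 30.6, 29.1 and 26.9 in D2. The D2-13B6 libraries stood alone at the bottom, while D2 lay between them and B6. The log2 fold change of D2-13B6 against B6-13D2 was -1.04 (SE 0.18, adjusted p = 1.87e-06). The region at the annotated 5′ start of Apobec3, 79891320 to 79894579, stood at -0.06 (SE 0.19, adjusted p = 0.848) in that comparison.

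The intron regions followed the same order. The one at 79942140 to 79943053 had 6.62, 7.44 and 6.04 CPM in B6, 6.05 and 7.77 in B6-13D2, 2.57, 3.00 and 3.27 in D2-13B6, and 4.67, 4.85 and 3.55 in D2, with a log2 fold change of -1.23 (SE 0.21, adjusted p = 1.93e-06) in D2-13B6 against B6-13D2. The one at 79959204 to 79961152 had 8.52, 9.82 and 8.75 CPM in B6, 10.2 and 10.1 in B6-13D2, 5.38, 4.64 and 6.09 in D2-13B6, and 8.04, 8.73 and 6.88 in D2, with a log2 fold change of -0.92 (SE 0.19, adjusted p = 6.17e-05). In both introns the D2-13B6 libraries lay below all others, and in the second the D2 libraries overlapped those of B6. The remaining 4 lower regions ran from -0.97 to -0.69 on the log2 scale, and the 20 regions that did not pass ran from -0.68 to 0.46.

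D2 against D2-13B6 compares the lines that share the D2 background, and uses the D2 libraries of the strain comparison. Among the 29 regions other than the upstream region, 7 passed the threshold, all higher in D2. Of all tested regions, 23.7% passed, 8.53% higher and 15.2% lower. The median was 0.23 over the locus and 0.04 over all tested regions. Besides the distal promoter, the called regions included the Apobec3 region at 0.64 (SE 0.16, adjusted p = 0.00171). They also included the 2 intron regions at 0.57 (SE 0.19, adjusted p = 0.0212) and 0.56 (SE 0.17, adjusted p = 0.0109), and the 3′ end of Cbx7 at 0.45 (SE 0.17, adjusted p = 0.0476). The other 2 stood at 0.61 and 0.59. The call at the 3′ end was lost in 12 of 17 alternatives, and the first intron call in 5 of 17. The alternatives were counted over all 30 regions, the upstream region included. Its passing in this comparison is no test, since the window was chosen with these D2 libraries. The count over all 30 was 8 in the main fit, 4 without D2 replicate 1 and 5 without D2-13B6 replicate 1. Over the same 30, the split was 8 higher and 0 lower with TMM scaling, 5 and 1 with RLE size factors, 6 and 1 with DESeq2, and 12 and 0 with total counts. In the same comparison, 7 of 8 embryonic stem cell promoters were higher and 4 of 5 fibroblast or feeder promoters lower in D2, where 5.62% of all promoters were higher and 16.98% lower. Their part in the locus differences was not tested.

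**Figure D3:**
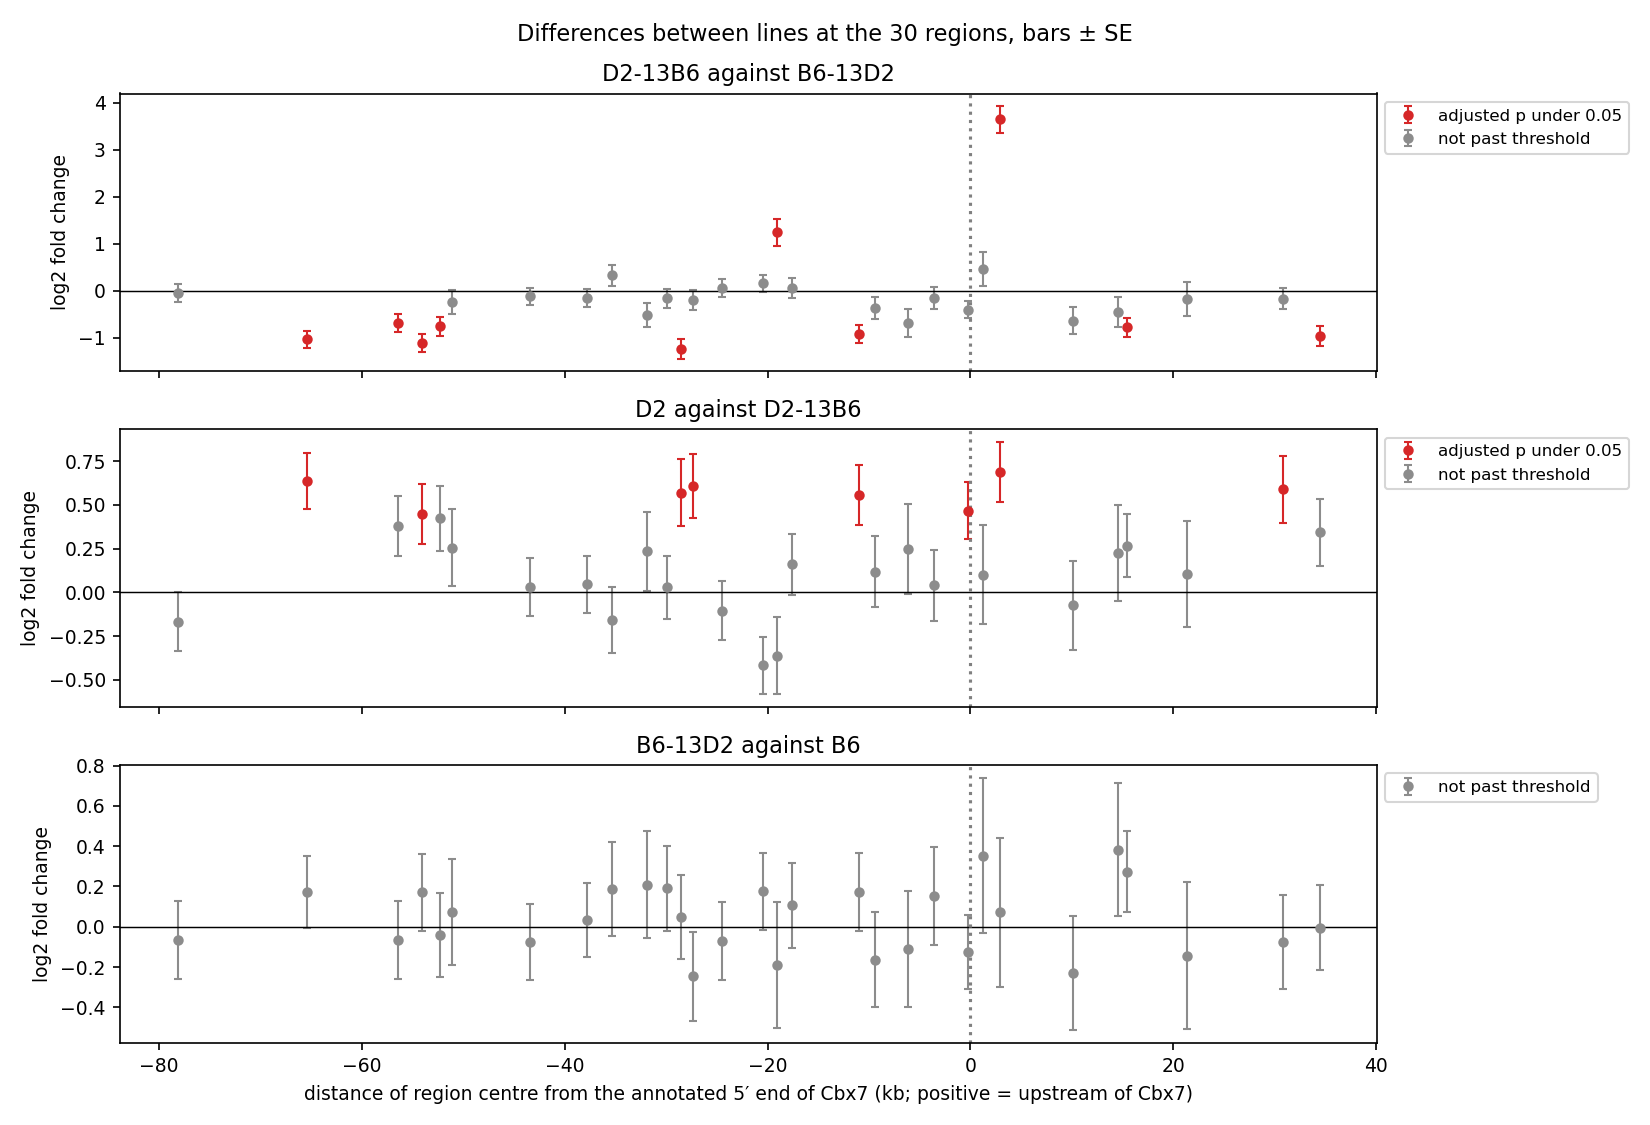
Log2 fold changes ± SE (y axes, scaled separately) at the 30 regions by distance from the annotated 5′ end of Cbx7 (x axis, kb, positive values upstream), with regions past the threshold in red. The upstream region stands at 3.64 in D2-13B6 against B6-13D2, and 10 regions passed there. In D2 against D2-13B6, 7 of the 29 other regions passed. The red of the upstream region there is no test, since the window was chosen with the D2 libraries. In B6-13D2 against B6, 0 passed.

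B6-13D2 against B6 compares the lines that share the B6 background and uses the B6 libraries of the strain comparison. No region of the locus was called: edgeR called 0 of the 30, where 0.474% of all tested regions passed. At an unadjusted p under 0.05 there were also 0, and DESeq2 called 0. The log2 fold changes ran from -0.25 to 0.38, with a median of 0.04 against -0.01 over all tested regions. With 2 libraries of B6-13D2, the SE of these log2 fold changes was between 0.18 and 0.39, which limits the changes this comparison can show.

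The interaction was called at 0 of the 30 regions by edgeR, where 6.54% of all tested regions passed, and at 0 by DESeq2. At an unadjusted p under 0.05 there were 4, and the smallest adjusted p was 0.0577. Total-count scaling called 3, and leaving out D2-13B6 replicate 3 or D2 replicate 2 called 1. The equal windows on either side each had 1 call.

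The window was bounded by position, and the values on either side of its edges are given as a description. The first region inside, 79891320 to 79894579, had means of 27.0 CPM in B6 and 22.0 in D2, and the nearest region outside, 79887741 to 79888359, had 1.51 and 1.82. The last region inside, 80005114 to 80005995, had 7.31 in B6 and 4.73 in D2, and the nearest outside, 80011162 to 80015337, which covers the start of Pdgfb, had 27.1 and 27.2.

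Promoters of most other Polycomb genes were more open in D2-13B6 than in B6-13D2, as were most promoters. A list of 38 genes, 26 of PRC1 and 12 of PRC2, had a promoter region each, and all 38 were tested. In D2-13B6 against B6-13D2, 28 were higher and 1 lower, and 9 did not pass. Among the promoters of all protein-coding genes, 64.6% passed, 57.02% higher and 7.58% lower, and the median log2 fold change was 0.66 over the list and 0.60 over these promoters, so the median of the list was close to that of promoters in general. The Cbx7 promoters stood at -0.15 and -0.40 in that comparison. Of the 15645 promoters, 17.9% had a lower log2 fold change than its CpG-rich promoter and 10.9% a lower one than its distal promoter. With the 8 list genes on chromosomes 11 and 13 left out, 22 of 30 were higher and 1 lower, and with total-count scaling 22 of 38 were higher and 2 lower.

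Phf19, which helps PRC2 find its targets, was among those that rose. Its promoter had 29.6, 27.3 and 34.3 CPM in B6, 30.6 and 28.8 in B6-13D2, 79.5, 88.7 and 52.2 in D2-13B6, and 61.4, 50.1 and 61.7 in D2. Every library with a D2 background lay above every library with a B6 background, and replicate 3 of D2-13B6 lay within the range of D2. The log2 fold change in D2-13B6 against B6-13D2 was 1.31 (SE 0.20, adjusted p = 2.13e-07). E2f6, a DNA-binding repressor of a PRC1 variant, stood at 1.13 (SE 0.21, adjusted p = 5.93e-06).

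Of the chromobox relatives, Cbx2 stood at 0.82 (SE 0.19, adjusted p = 3.84e-04), Cbx8 at 1.03 (SE 0.19, adjusted p = 1.11e-05) and Cbx6 at 0.57 (SE 0.19, adjusted p = 0.0113). Cbx2 and Cbx8 lie on chromosome 11, while Cbx6 lies on chromosome 15, outside the window on the Apobec3 side, with its promoter region at 79832973 to 79834913. Mtf2, a PRC2 accessory protein, was the 1 promoter that fell. It had 23.6, 28.2 and 25.9 CPM in B6, 28.6 and 32.6 in B6-13D2, 18.2, 15.7 and 13.3 in D2-13B6, and 23.8, 21.3 and 24.4 in D2. The D2-13B6 libraries lay below all others, and the log2 fold change was -0.96 (SE 0.18, adjusted p = 1.49e-05).

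**Figure D4:**
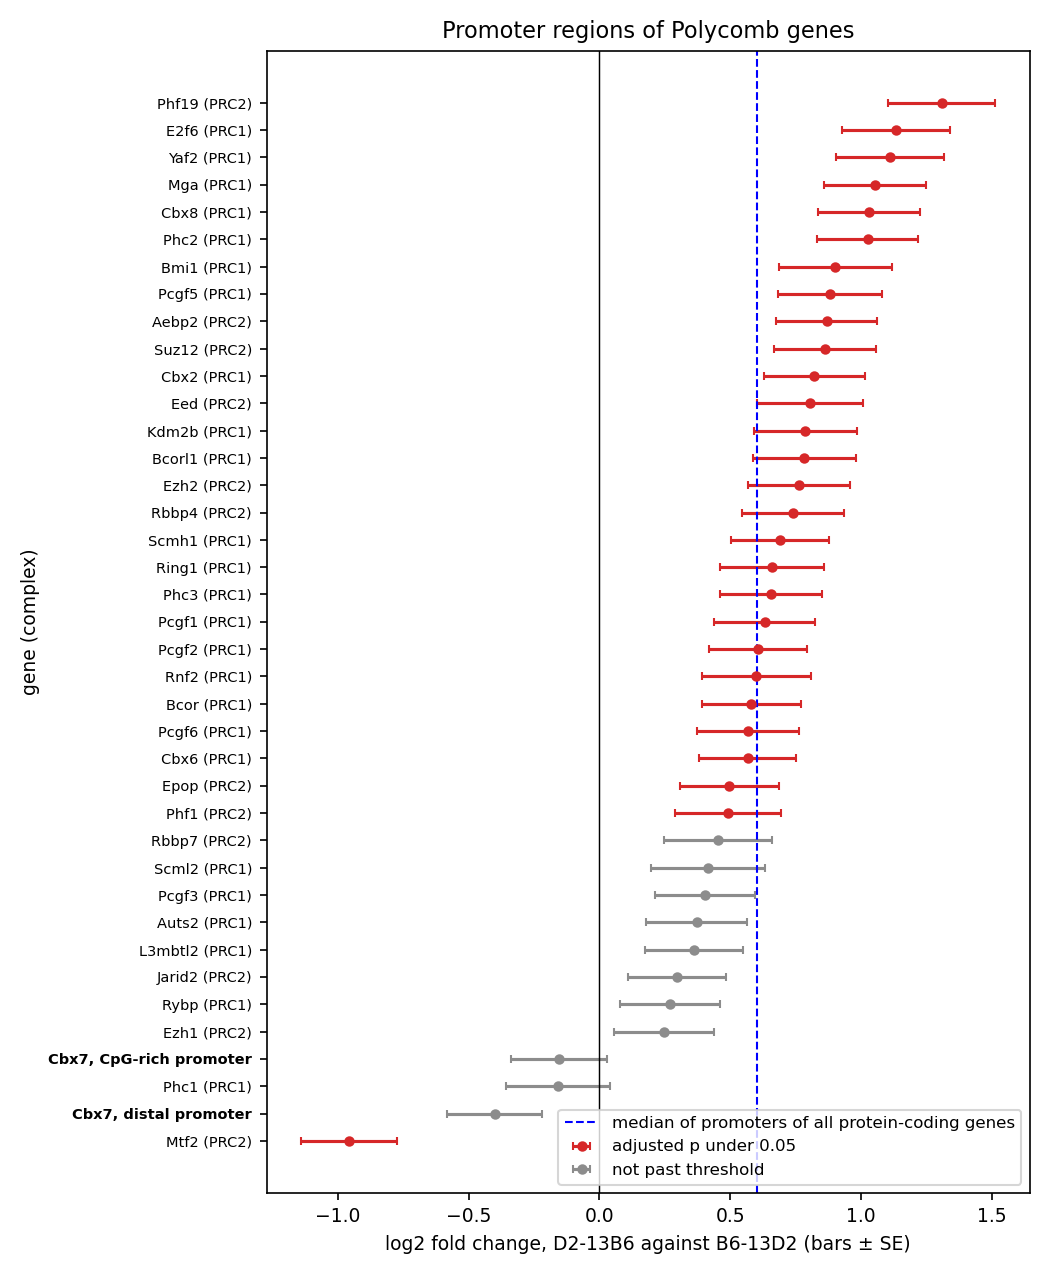
Log2 fold change ± SE (x axis) of D2-13B6 against B6-13D2 at the promoter region of 37 of the 38 Polycomb genes and at both Cbx7 promoters (y axis), with promoters past the threshold in red. The dashed line is the median of 0.60 over promoters of protein-coding genes. The Cbx7 promoters lie near the bottom at -0.15 and -0.40, Phf19 lies at the top at 1.31 and Mtf2 at the bottom at -0.96.

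In D2 against D2-13B6, 6 of the 38 Polycomb promoters passed, 1 higher and 5 lower in D2, where 22.6% of promoters passed, 5.62% higher and 16.98% lower. That count was 11 with DESeq2, 23 without D2-13B6 replicate 3, 3 without D2 replicate 3 and 1 with only the libraries of the comparison in the fit. In B6-13D2 against B6, 1 of 38 passed, where 0.109% of promoters did. It was Scmh1, a PRC1 accessory subunit, with 9.55, 11.2 and 10.3 CPM in B6, 17.6 and 17.4 in B6-13D2, 25.6, 33.8 and 25.5 in D2-13B6, and 20.2, 21.0 and 17.4 in D2. B6 was the lowest line and D2-13B6 the highest, and the log2 fold change of B6-13D2 against B6 was 0.76 (SE 0.19, adjusted p = 0.0361). This call was lost with RLE size factors (0.77, adjusted p = 0.0729), with the replicate block (0.71, adjusted p = 0.0763) and when any library of B6 or B6-13D2, or D2 replicate 1, was left out (0.71 to 0.82).

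The promoters whose pattern over the 11 libraries was most like that of the upstream region were sought among 14421 promoter regions by the Pearson correlation of log2 CPM. They were those of Alad (r = 0.971), Cd244a (r = 0.967) and 1700093K21Rik (r = 0.965). Alad had means of 53.6 ± 1.89 CPM (SD, n = 3) in D2 and 21.4 ± 1.30 CPM (SD, n = 3) in B6. Those of D2-13B6 and B6-13D2 were 52.3 ± 7.30 CPM (SD, n = 3) and 21.1 ± 0.254 CPM (SD, n = 2), a step between backgrounds like that of the upstream region and smaller. For the CpG-rich promoter of Cbx7, the closest were Prob1 (r = 0.958), Slc10a4 (r = 0.920) and 4930470P17Rik (r = 0.908). The libraries share their lines and depths, so these values describe likeness and were not tested.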

How the data were processed

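Open chromatin was measured by ATAC-seq in 11 libraries of 4 mouse embryonic stem cell lines. The authors deposited whole-number counts per region in a table shared by all libraries, without normalization. Duplicate and mitochondrial reads had been removed and alignments sorted before counting, per the file headers. Trimmomatic 0.39, BWA 0.7.5, Picard 2.0.1, MACS 1.4.2, bedtools 2.9.2, edgeR 3.34.1 and the mm10 build are named, without roles, per the submitters' processing notes. Whether reads or fragments were counted and whether alignments were shifted for the transposase is not given in the sources used here. Coordinates are as the table lists them, and no region ran past a GRCm38 chromosome end.

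The members and gene lists were chosen with earlier results of these data known. Counts were tested with edgeR 4.0.16 in R 4.3.3, using TMM scaling, filterByExpr, robust quasi-likelihood fitting and 1 model over the 11 libraries, in which each line had its own coefficient. Benjamini-Hochberg adjustment of p-values ran over 246840 regions, after the filter removed 1496, and all 30 locus regions were tested. A region passed at an adjusted p under 0.05. SEs came from the F statistic, and a prior count of 2 went into log2 CPM. A promoter region lies within 1000 bp of a GENCODE M21 start, and each gene was given its strongest one. Named regions were the upstream region, regions at starts of Cbx7 and Apobec3, up to 4 higher and 4 lower regions of smallest p in D2-13B6 against B6-13D2 whose values did not overlap, and any region called in B6-13D2 against B6. Named Polycomb genes were chosen likewise, and 1 gene that the rule names is not reported here. The test was checked on simulated data. Alternatives were RLE size factors, total counts, no filter, DESeq2 1.42.0, only the libraries compared, a replicate block and leaving out each library. Total counts of 15198496 to 43042955 per library set the precision, and counting error does not cover PCR copies that escaped the duplicate filter.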

Additional observations from a re-analysis of the deposited data

How the results depend on the processing

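The upstream region kept its direction and call in D2-13B6 against B6-13D2, and its direction in D2 against D2-13B6, under every alternative run. Its value in B6-13D2 against B6 ran from -0.19 to 0.33 when 1 library was left out, with -0.19 without B6 replicate 2 and -0.16 without B6-13D2 replicate 1. Locus calls here are out of all 30 regions, the upstream region included. In D2 against D2-13B6 its passing is no test, since the window was chosen with the D2 libraries. Leaving out 1 library gave 9 to 12 locus calls in D2-13B6 against B6-13D2, 4 to 11 in D2 against D2-13B6, 0 in B6-13D2 against B6 and 0 to 1 for the interaction. For Polycomb promoters it gave 21 to 36, 3 to 23 and 0 to 1 calls in the first 3 of these. Total-count scaling gave 19 locus calls in D2-13B6 against B6-13D2 and 3 for the interaction. With only the libraries compared in the fit, D2 against D2-13B6 had 5 locus calls and 1 Polycomb call, and DESeq2 gave 11 Polycomb calls there. RLE size factors and the replicate block each left 0 Polycomb calls in B6-13D2 against B6. In D2 against D2-13B6, the CpG-rich Cbx7 promoter reversed to -0.026 with RLE size factors, -0.026 with DESeq2, and -0.033 to 0.12 when 1 library was left out (-0.033 without D2-13B6 replicate 3, -0.00 without D2 replicate 1). The cause of these changes was not tested. Total-count scaling shifted the median of all regions by -0.29 in D2-13B6 against B6-13D2 and by 0.17 in D2 against D2-13B6. Replicate numbers gave no clear pairing. Deviations of same-numbered libraries from their line means correlated at -0.05 to 0.07 (median 0.027) over 15 pairs. The other 30 pairs ran from -0.15 to 0.16 (median -0.015). Deviations from line means are not independent between pairs, so this check cannot exclude a weak pairing. With the replicate block, the upstream region stood at 3.60, 0.12, 0.70 and -0.58 in D2-13B6 against B6-13D2, B6-13D2 against B6, D2 against D2-13B6 and the interaction. Counts of 5 to 27 limit the precision of the upstream region in B6 and B6-13D2.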
